A study of Rattus norvegicus with 17 samples.

Results

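Col3a1, Col8a1 and Col4a2 are collagen genes of different classes, and their transcripts were followed here in kidney RNA of rats with a failing remnant kidney. Col3a1 (ENSRNOG00000003357) and Col8a1 (ENSRNOG00000039668) were taken by their identifiers and Col4a2 (ENSRNOG00000023972) by its symbol, which makes 3 genes of the 23487 in the count tables and of the 15438 that passed the filter on low counts. Sub-total nephrectomy (SNx), the resection of most of one kidney and removal of the other, was compared with control rats that the sample labels call NoOp. The rats were male Wistar Han rats, and no further agent or allele was named for either group. RNA came from bulk kidney tissue, of which by the study's text a part was fixed for histology and the rest frozen. The 12 SNx and 5 NoOp libraries were taken as 1 per rat, although the labels give no animal number. The labels say NoOp where the study's text calls the controls of study 2 sham. By that text SNx rats were to be killed at a threshold of kidney function, at differing times after surgery, but in study 2 most of them did not reach it, and the labels do not say which of the 12 libraries come from rats past the threshold. Total counts per library ranged from 19210434 to 30784070 in SNx (median 22709319) and from 30454170 to 43876369 in NoOp (median 32745316). The SNx libraries were the shallower (two-sided exact permutation test over 6188 splits, p = 0.000323).

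Collagens are trimeric proteins of the extracellular matrix. Fibrillar collagens such as type I and type III form the fibres of the interstitium, the space between tubules and vessels, and they accumulate in a scarring kidney. Type IV collagen forms the sheet-like network of basement membranes, on which tubular cells, endothelium and podocytes rest, and its alpha 1 and alpha 2 chains are found in nearly every basement membrane. Type VIII is a short-chain collagen that forms hexagonal networks and is made by endothelial, smooth muscle and mesenchymal cells, also where vessels are remodelled. Col3a1 encodes the single chain of type III collagen, Col8a1 the alpha 1 chain of type VIII and Col4a2 the alpha 2 chain of type IV.

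The files place Col3a1 on chromosome 9, Col8a1 on chromosome 11 and Col4a2 on chromosome 16. The region upstream of Col4a2 is shown because Col4a1 starts next to it on the opposite strand, and the transcripts of both genes are compared below. In the RefSeq annotation of GRCr8, a build other than the rn6 transcriptome of the files, the window from 250 bases before to 50 after the Col4a2 start is chr16:84885471-84885770 on the minus strand. The starts of both genes lie 77 bases apart and their windows overlap by 176 bases. Capitals mark the 76 bases between the starts.
Col4a2: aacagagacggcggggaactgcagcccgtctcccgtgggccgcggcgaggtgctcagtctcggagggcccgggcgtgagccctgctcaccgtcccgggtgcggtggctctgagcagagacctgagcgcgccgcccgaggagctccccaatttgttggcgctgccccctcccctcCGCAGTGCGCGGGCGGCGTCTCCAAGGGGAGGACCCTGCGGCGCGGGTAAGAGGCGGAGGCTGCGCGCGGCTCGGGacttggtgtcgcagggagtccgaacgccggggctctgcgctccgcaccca
The Col8a1 window, chr11:56246532-56246831 on the plus strand of GRCr8, is shown because Col8a1 rose the most of the 3. Capitals mark every match to GGGCGG (here read as CCGCCC, on the other strand) and to CAGAC.
Col8a1: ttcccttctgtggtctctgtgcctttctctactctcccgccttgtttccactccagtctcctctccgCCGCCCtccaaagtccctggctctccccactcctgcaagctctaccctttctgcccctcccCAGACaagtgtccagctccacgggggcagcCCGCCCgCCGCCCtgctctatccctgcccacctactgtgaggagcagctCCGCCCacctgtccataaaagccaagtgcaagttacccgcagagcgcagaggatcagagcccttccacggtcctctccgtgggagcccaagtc
Both windows were searched on both strands for GGGCGG, for the CCAAT box, for TATAAA and for the element CAGAC, all chosen after the sequences had been read. GGGCGG, the core of a GC box, occurred 4 times in the Col8a1 window and is held by 33.1% of all 33469 promoter windows of that length. In the Col4a2 window it lay at -121 and -66 bases from the start, and CCAAT, which 37.5% of windows hold, lay at -105. The Col8a1 window held CAGAC, a short SMAD-type element that 50.1% of windows hold, at -122 bases from its start, and neither window held TATAAA (14.2% of windows). The letters are a description of these windows and no evidence of a bound factor. GC content was 62.7% in the Col8a1 window and 73.7% in the Col4a2 window.

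Before the values, 1 library has to be named. SNx 1 had the highest level of all 3 collagens among the SNx libraries and the lowest summed level of proximal tubule markers, 1576 CPM (edgeR's measure of a count relative to the total of its library, with totals scaled by TMM factors) against 3176 to 14602 in the other SNx libraries. Values without it are given beside the results that moved most. Levels are compared between libraries for 1 gene at a time, since no transcript lengths were used here and levels of different genes are not comparable. Because the tissue was bulk kidney, a gain in the number of collagen-making cells and a gain in RNA per cell, or fewer cells and less RNA per cell for the genes that fell, cannot be told apart.

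Col3a1 transcript levels ranged from 394 CPM in SNx 8 to 2938 CPM in SNx 1, with a median of 804 CPM over the 12 SNx libraries. In the 5 NoOp libraries they were 148, 176, 131, 134 and 126 CPM. Every SNx library was above every NoOp library, and the highest SNx library was 7.46-fold above the lowest (2.69-fold without SNx 1). In edgeR's quasi-likelihood test with Benjamini-Hochberg adjustment over all 15438 genes, Col3a1 rose by 2.74 on the log2 scale (SE 0.39, adjusted p = 2.84e-05), a 6.69-fold change of mean counts. Without SNx 1 the log2 change was 2.44. Only 2.52% of the tested genes had a larger rise.

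Col8a1 transcript levels ranged from 34.4 CPM in SNx 8 to 123 CPM in SNx 1, with a median of 61.7 CPM. The NoOp libraries had 7.58, 4.69, 7.79, 4.91 and 4.08 CPM, which correspond to between 117 and 257 counts, the fewest of the 3 genes. No NoOp library reached the SNx range. Col8a1 rose by 3.51 on the log2 scale (SE 0.30, adjusted p = 2.57e-07, edgeR), an 11.4-fold change, and 1.15% of tested genes rose more.

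Col4a2 transcript levels ranged from 875 CPM in SNx 9 to 1618 CPM in SNx 1, with a median of 1092 CPM. The NoOp libraries held within a narrow band, at 454, 473, 425, 474 and 463 CPM. The groups did not overlap here either. Col4a2 rose by 1.31 on the log2 scale (SE 0.14, adjusted p = 1.57e-06, edgeR), a 2.49-fold change, and 10.5% of tested genes rose more.

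All 3 collagens passed the test, against a background of 58.0% of tested genes called in either direction and 30.3% called higher in SNx (4672 genes, with 4277 or 27.7% lower). In 13.5% of tested genes every SNx library was above every NoOp library. When counts were scaled by library size alone, the median log2 change of all genes moved from 0.02 to 0.23 and the calls became 7044 higher and 2403 lower, against which the rise of Col3a1 was 2.97, the rise of Col8a1 3.72 and the rise of Col4a2 1.53 on the log2 scale. Labels give no batch, but library numbers fall into a lower range, holding 6 SNx and all NoOp libraries, and an upper range with the other 6 SNx libraries. In the lower range the log2 rises were 3.03, 3.69 and 1.44 for Col3a1, Col8a1 and Col4a2, and with the SNx libraries of the upper range they were 2.39, 3.31 and 1.18, all past the threshold (edgeR). The SNx means of the ranges differed by 0.48, 0.40 and 0.26 log2 CPM, with adjusted p = 0.279 for each (two-sided exact permutation test over 924 splits).

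**Figure D1:**
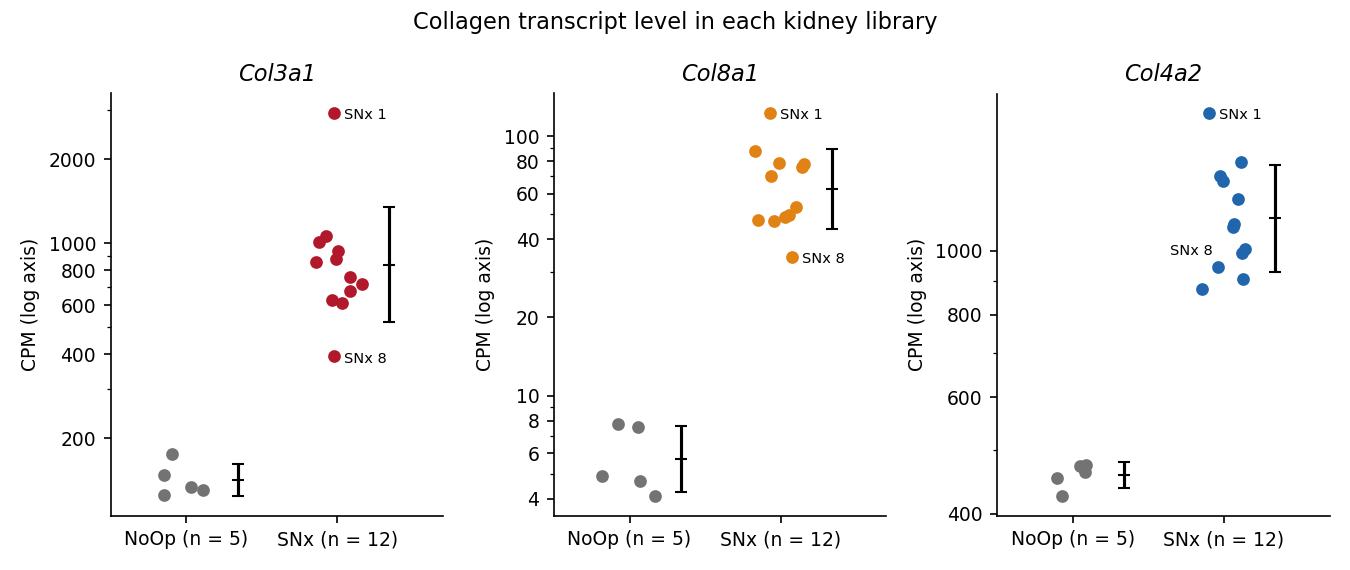
Transcript level (CPM, log axis) of Col3a1, Col8a1 and Col4a2 in each of 5 NoOp and 12 SNx libraries, with points for single libraries and black marks for the mean and SD of log2 CPM. All SNx points lie above all NoOp points, SNx 1 is the highest in each panel, and the NoOp points of Col4a2 are the closest together.

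The size of the rise was then compared between genes within each library, as the log2 ratio of a pair, in which library scaling cancels. Col8a1 rose more than Col3a1, with a log2 difference of mean rise of -0.89 for Col3a1 minus Col8a1 (two-sided exact permutation test, p = 0.00113, adjusted over 3 pairs 0.00113). Col3a1 rose more than Col4a2 by 1.27 on the log2 scale, which is 2.42-fold (p = 0.000162, the smallest these splits can give, adjusted 0.000242). Col8a1 rose more than Col4a2 by 2.17 on the log2 scale, which is 4.49-fold (p = 0.000162, adjusted 0.000242). The log2 ratio of Col3a1 to Col4a2 was between -1.35 and 0.86 in SNx and between -1.88 and -1.42 in NoOp, and that of Col8a1 to Col4a2 between -4.87 and -3.71 and between -6.80 and -5.76, without overlap of the groups for either pair. The ratio of Col3a1 to Col8a1 was 3.42 to 4.58 in SNx and 4.05 to 5.21 in NoOp, and here the groups overlapped. Without SNx 1 the SNx maximum was -0.10 for Col3a1 to Col4a2 and 3.99 for Col3a1 to Col8a1, so the overlap of the latter pair rested on that library. Differences of rise kept their direction and their call in each library range.

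Rat by rat, the fold over the geometric mean of the NoOp libraries told the genes apart. In SNx 1 Col3a1 was 20.7-fold, Col8a1 21.7-fold and Col4a2 3.54-fold above it. In SNx 8 the values were 2.78, 6.05 and 2.20-fold. SNx 8 was thus last of 12 for Col3a1 and for Col8a1, but ranked 8 for Col4a2. SNx 6 ranked 10 for Col3a1 (4.42-fold), 7 for Col8a1 (9.42-fold) and 3 for Col4a2 (2.83-fold), while SNx 9, the lowest for Col4a2 (1.91-fold), was next to last for both other genes (4.30 and 8.28-fold).

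**Figure D2:**
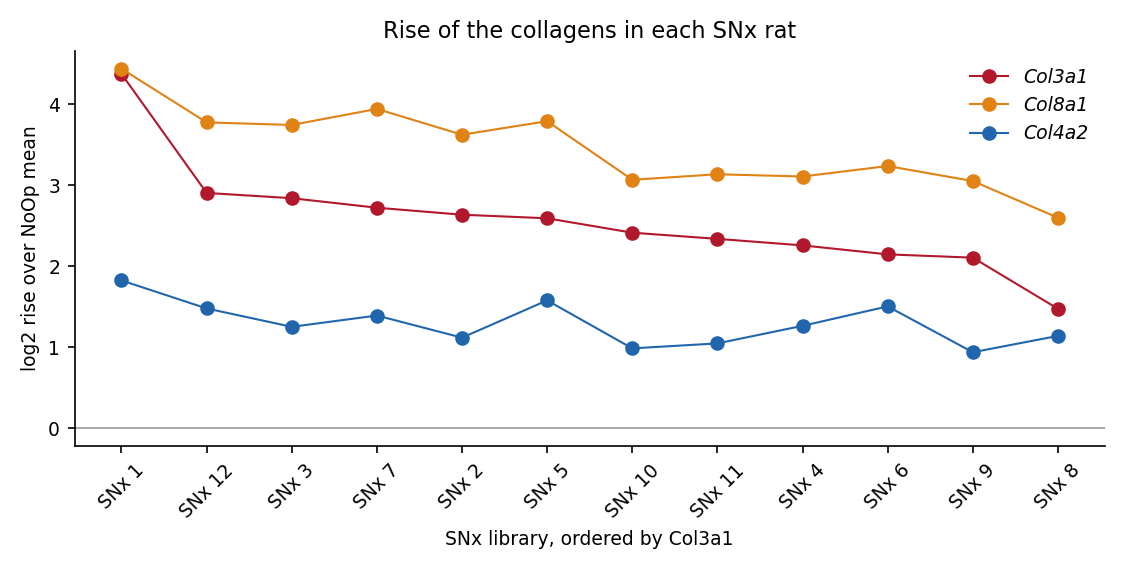
Rise of log2 CPM over the mean of the NoOp libraries for the 3 genes in each of the 12 SNx rats, ordered by Col3a1. Col8a1 is the highest line in every rat, Col4a2 is the lowest and flattest, and SNx 1 leads all 3 lines.

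The spread between rats is first described for each gene, and its differences are tested below. Over the SNx libraries the coefficient of variation of CPM was 68.3% for Col3a1, 36.9% for Col8a1 and 19.3% for Col4a2, against 14.3%, 29.9% and 4.40% in NoOp. The SD of log2 CPM was 0.69, 0.51 and 0.27 in SNx and 0.20, 0.42 and 0.06 in NoOp, where the median over all tested genes was 0.29 in SNx and 0.17 in NoOp. Col3a1 thus varied more between SNx rats than 87.4% of tested genes, Col8a1 more than 76.5% and Col4a2 more than 45.1%. Much of the spread of Col3a1 came with 1 rat: without SNx 1 its coefficient of variation was 25.5% and its SD 0.41, while that of Col8a1 was 28.4% and 0.42 and that of Col4a2 15.3% and 0.22.

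Whether the SNx rats were more variable than controls was tested on the mean absolute deviation of log2 CPM from the group median. For Col4a2 it was 0.213 in SNx and 0.0436 in NoOp (two-sided exact permutation test, p = 0.0304, adjusted over 3 genes 0.0911). For Col3a1 it was 0.444 and 0.133 (p = 0.167, adjusted 0.251), and for Col8a1 0.426 and 0.321 (p = 0.473, adjusted 0.473). None passed the threshold after adjustment. Without SNx 1 the differences of SNx minus NoOp were 0.173 for Col3a1 (0.311 with it), 0.0353 for Col8a1 (0.106) and 0.137 for Col4a2 (0.170), and again none passed.

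Among the SNx rats, Col8a1 deviated more from its median than Col4a2 in 11 of 12 libraries, with a mean difference of 0.213 log2 units (two-sided exact sign-flip permutation test, p = 0.00146, adjusted 0.00439). The call depends on the full set of 12: with any 1 SNx library left out the difference was 0.151 to 0.220 and the adjusted p between 0.0820 and 0.231. Col3a1 deviated more than Col4a2 in 8 of 12 libraries, with a mean difference of 0.231 (exact permutation p = 0.0854, adjusted 0.128), which was 0.126 without SNx 1 (adjusted p = 0.310). Col3a1 and Col8a1 differed by 0.0180 (adjusted p = 0.892), and by -0.0494 without SNx 1 (adjusted p = 0.485).

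Across the 12 SNx libraries, Col3a1 and Col8a1 varied together. Pearson's r of log2 CPM was 0.91 (100000 permutations, p = 1e-05, the smallest they can give, adjusted over 3 pairs 3e-05) and Spearman's rho was 0.86 (p = 0.00054, adjusted 0.00162). Without SNx 1 and SNx 8, the libraries farthest from the median of Col3a1, r was 0.87, and without SNx 1 alone it was 0.91. In the lower range of library numbers r was 0.93 (exact permutation test, p = 0.0111, adjusted over 3 pairs 0.0333, n = 6). In the upper range it was 0.91 (exact permutation test, p = 0.0181, adjusted 0.0542, n = 6), not past the threshold after adjustment.

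For Col8a1 and Col4a2, r was 0.75 (permutation p = 0.00496, adjusted 0.00744) and rho 0.76 (p = 0.00643, adjusted 0.00965). Without SNx 1 and SNx 8 r was 0.63. Without SNx 1 alone it was 0.59 (permutation adjusted p = 0.0859) while rho was 0.68 (adjusted 0.0390). In the library ranges r was 0.62 and 0.77 (exact permutation p = 0.182 and 0.0875, n = 6 each).

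For Col3a1 and Col4a2, r was 0.68 (permutation p = 0.0139, adjusted 0.0139) and rho 0.48 (p = 0.116, adjusted 0.116). The relation rested on SNx 1: without it r was 0.37 (permutation adjusted p = 0.272), and without SNx 1 and SNx 8 it was 0.38. In the library ranges r was 0.64 and 0.58 (exact permutation p = 0.171 and 0.228, n = 6 each). Whether the 3 correlations differ from one another was not tested.

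As a background for these correlations, the median r with all other tested genes was -0.06 for Col3a1, -0.04 for Col8a1 and -0.03 for Col4a2. Among 15437 genes ranked by r with Col3a1, Col8a1 stood at rank 30 and Col4a2 at rank 693. For Col8a1, Col3a1 ranked 18 and Col4a2 354, and for Col4a2, Col3a1 ranked 877 and Col8a1 388. Without SNx 1, Col8a1 stood at rank 5 and Col4a2 at rank 1875 for Col3a1, Col3a1 at 10 and Col4a2 at 653 for Col8a1, and Col3a1 at 3067 and Col8a1 at 948 for Col4a2. Library depth was not strongly related to any of the 3 across SNx libraries (r = -0.20, -0.09 and -0.41, permutation adjusted p = 0.772, 0.772 and 0.571).

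**Figure D3:**
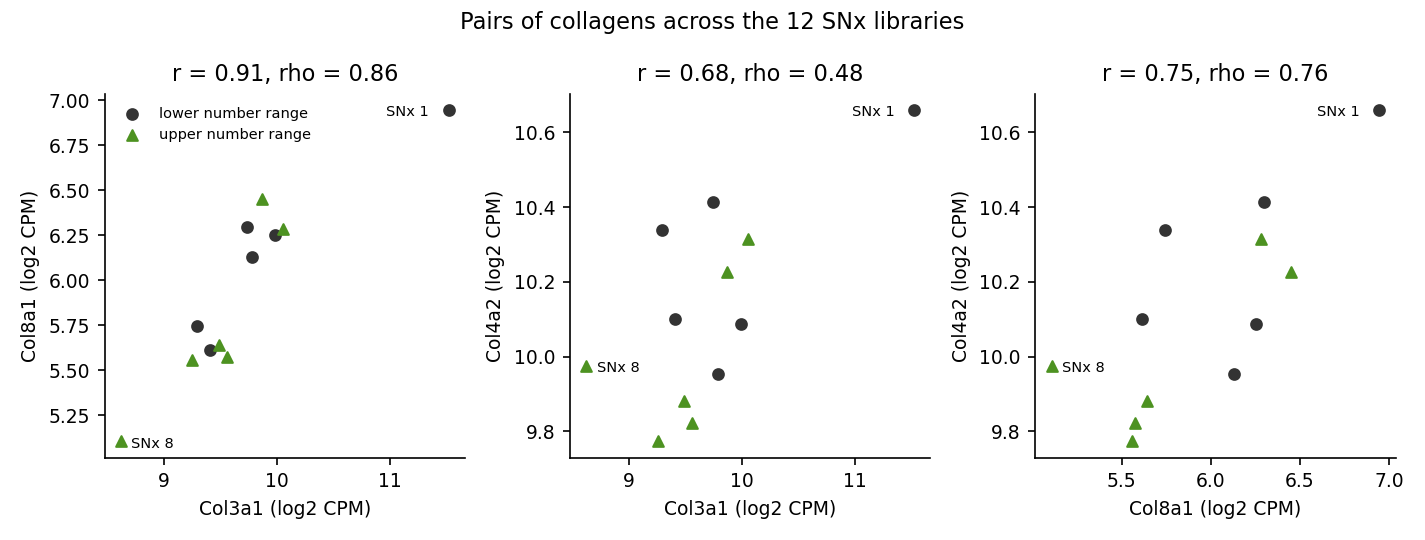
Log2 CPM of each pair of genes across the 12 SNx libraries, with circles for the lower and triangles for the upper range of library numbers. Col3a1 and Col8a1 lie along a line (r = 0.91), while SNx 1 at the top right stands apart from the other points in the panel of Col3a1 with Col4a2 (r = 0.68).

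The genes with the pattern most like each member across the 12 SNx libraries were sought among 1897 genes that carried a symbol and averaged 1 log2 CPM or more. The only symbols at hand were those of genes in the study's lists of change, so genes outside those lists could not appear. Nearest to Col3a1 were Col5a2, the alpha 2 chain of the fibril-regulating type V collagen (r = 0.964), Col6a1 of the microfibrillar type VI (0.959), Col15a1 (0.944), Tpm2, a tropomyosin of contractile cells (0.940), and Col1a1 of type I collagen (0.938). Nearest to Col8a1 were Csf1r, the receptor for colony-stimulating factor 1 on macrophages (0.951), the tyrosine phosphatase Ptpre (0.946), Col5a2 (0.945), Ramp1, a partner of the calcitonin receptor-like receptor (0.943), and Col15a1 (0.935). Nearest to Col4a2 were Col4a1 (0.960), Smo, the transducer of Hedgehog signals (0.919), the cross-linking enzyme Loxl1 (0.912), Dtx4 (0.896) and Fam114a1 (0.884). Smo itself did not pass the test between groups (log2 change 0.12, adjusted p = 0.435, edgeR), so its likeness to Col4a2 is one between SNx rats only. Without SNx 1, r of these genes was between 0.80 (Col1a1) and 0.90 (Col5a2) for Col3a1, between 0.91 (Ramp1) and 0.96 (Col5a2) for Col8a1, and between 0.82 (Fam114a1) and 0.93 (Col4a1) for Col4a2. The order of likeness to Col3a1 depended on that library. Without it, among all 15437 genes, Col8a1 stood at rank 5, Col5a2 at 6, Col6a1 at 17, Col15a1 at 28, Tpm2 at 50 and Col1a1 at 84.

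Of 43 collagen chains written in the lists, 12 had an identifier, the 3 members included. All 12 were called higher in SNx (edgeR, adjusted p below the threshold). Of all tested genes 30.3% were called higher, and of the tested genes with a symbol 53.4%. In 11 of the 12 the groups did not overlap, against 13.5% of all tested genes, and Col18a1 was the exception. Both counts were the same without SNx 1. These symbols come from lists of genes that the study called changed, in study 1 (other rats) or in study 2, whose rats may include these, so the count of 12 is no independent evidence of direction. Of the fibrillar collagens, Col3a1 had the smallest p, and Col5a3 the largest (log2 change 2.18, SE 0.40, adjusted p = 0.000281), with Col5a2 at 1.75 and Col1a1 at 3.63. The rise of Col1a1 was 2.97 without SNx 1, 2.92 with DESeq2, 3.18 with limma-voom and 3.23 on the deposited log2 values. The rise of Col8a1 was 3.39, 3.50, 3.47 and 3.48 in the same settings, so the order of these collagens depends on that library and on the fit, and none is drawn. Of the basement membrane collagens Col4a2 had the smallest p and Col4a6 the largest (1.29, SE 0.21, adjusted p = 8.3e-05), with Col4a1 at 1.55. Of the other collagens, Col15a1 rose by 3.13 (SE 0.40, adjusted p = 1.16e-05, edgeR) and Col18a1 by 0.74 (SE 0.14, adjusted p = 0.000414). Col6a1 and Col16a1 lay between, at 1.93 and 1.82.

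**Figure D4:**
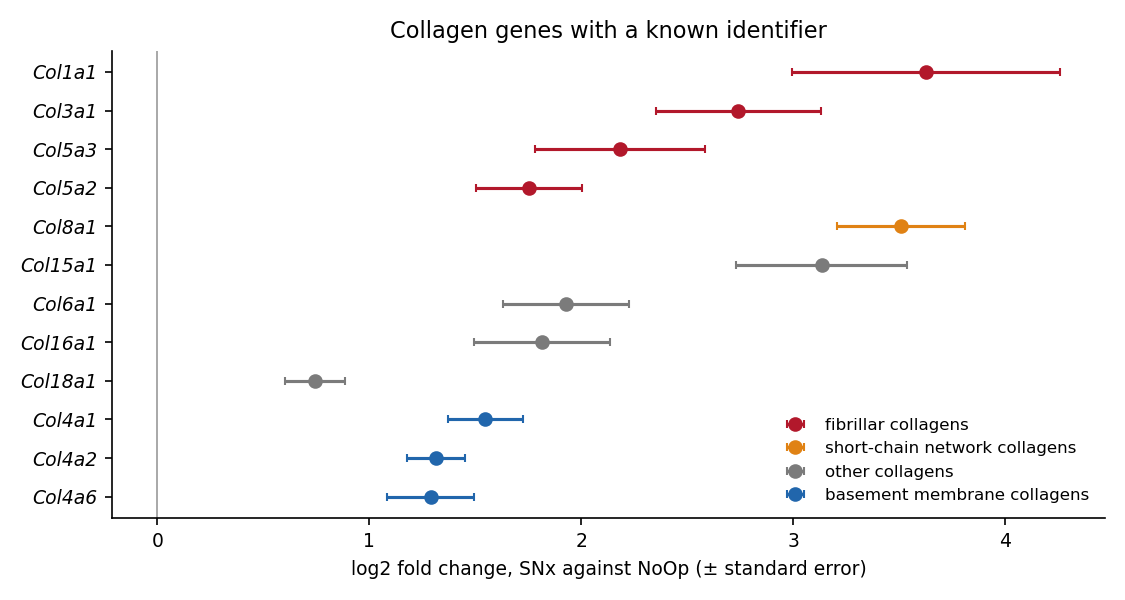
Log2 fold change of SNx against NoOp with its standard error for the 12 collagen genes with an identifier, by class. The fibrillar genes span 1.75 to 3.63, Col8a1 stands at 3.51 (without SNx 1 the rise of Col1a1 is 2.97 and the rise of Col8a1 3.39, and their order also turns with DESeq2, limma-voom and the deposited log2 values), and the 3 basement membrane chains span 1.29 to 1.55.

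Within the family, the correlation of Col3a1 with the other fibrillar chains over SNx libraries was 0.94 for Col1a1, 0.96 for Col5a2 and 0.72 for Col5a3, and with the type IV chains it was 0.64 for Col4a1, 0.68 for Col4a2 and 0.43 for Col4a6. Col8a1 correlated at 0.79 with Col1a1, 0.94 with Col5a2 and 0.56 with Col5a3, and at 0.66 with Col4a1, 0.75 with Col4a2 and 0.51 with Col4a6, so that the classes overlapped. Col4a2 correlated at 0.96 with Col4a1 and 0.79 with Col4a6, and at 0.68 with Col1a1, 0.79 with Col5a2 and 0.66 with Col5a3, so that the classes overlapped here too. Col18a1 correlated at 0.19 with Col3a1, 0.22 with Col8a1 and 0.68 with Col4a2. Several of these values rested on SNx 1. Without it Col3a1 correlated at 0.80 with Col1a1, 0.90 with Col5a2 and 0.01 with Col5a3, and at 0.21 with Col4a1, 0.37 with Col4a2 and 0.18 with Col4a6. Col8a1 then correlated at 0.71, 0.96 and 0.08 with the same fibrillar chains and at 0.44, 0.59 and 0.36 with the type IV chains. Col4a2 then correlated at 0.93 with Col4a1 and 0.75 with Col4a6, and at 0.34, 0.63 and 0.31 with the fibrillar chains in the same order, and Col18a1 was at -0.14, 0.03 and 0.65 with Col3a1, Col8a1 and Col4a2. Values are descriptions over libraries that all genes share. Col4a1 and Col4a2, whose starts lie next to each other, had a log2 ratio of 0.93 ± 0.12 (SD, n = 12) in SNx and 0.71 ± 0.08 (SD, n = 5) in NoOp.

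**Figure D5:**
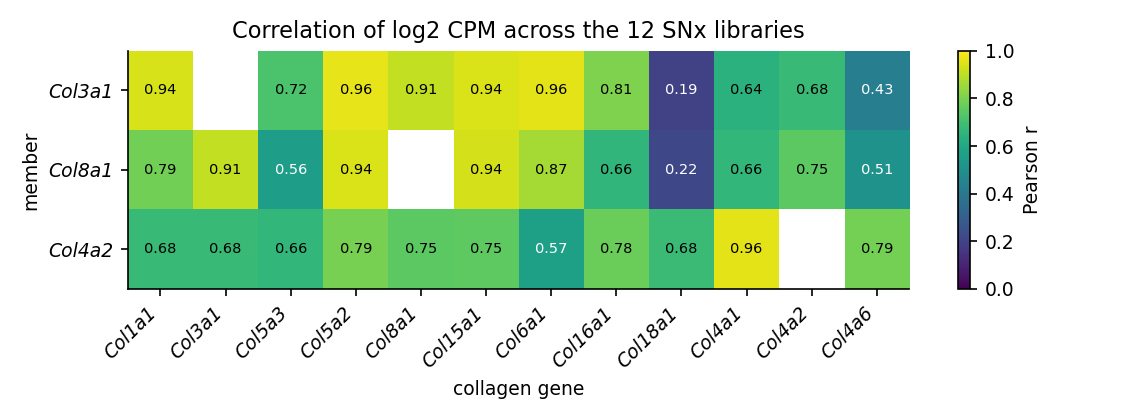
Pearson r of log2 CPM across the 12 SNx libraries between the 3 members (rows) and the 12 collagens (columns). Col3a1 and Col8a1 are both highest with Col5a2 (0.96 and 0.94), and Col4a2 is highest with Col4a1 (0.96), while without SNx 1 some others fall, as Col3a1 with Col5a3 from 0.72 to 0.01.

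The pathway around the collagens was followed in lists of which only genes with an identifier can be counted. Symbols again came only from the study's lists of changed genes, so the counts, set against 30.3% of all tested genes called higher and 27.7% called lower, are no independent evidence of direction. Of the 2003 tested genes with a symbol, 53.4% were called higher and 40.5% lower. Of the genes for collagen folding and modification, 6 of 18 had an identifier, 5 were called higher and 1 lower. P3h4, a partner in lysyl hydroxylation of collagen, rose by 1.21, and P3h2, a prolyl hydroxylase that prefers type IV collagen, fell by 0.75 on the log2 scale. Of the genes of procollagen processing and cross-linking, 6 of 15 were identified and all 6 were called higher, with Pxdn, the peroxidase that cross-links type IV collagen, at 1.87 and Adamts14, a procollagen peptidase, at 1.82. Of the genes of collagen breakdown and its inhibitors, 10 of 16 were identified and 9 tested, with 7 higher and 1 lower. Timp1, an inhibitor of metalloproteinases, rose by 2.93 and the macrophage elastase Mmp12 by 5.28, while Timp3 fell by 1.24. Of 9 collagen receptors none had an identifier.

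Around the basement membrane, 7 of 24 further components were identified, 5 higher and 2 lower: Smoc2 rose by 1.88, while nephronectin (Npnt) fell by 1.28 and Tinag by 1.26 on the log2 scale. Of interstitial matrix components 9 of 21 were identified, 7 higher and 1 lower, with osteopontin (Spp1) at 4.44, tenascin C (Tnc) at 3.03 and Tgfbi, which fell by 0.95. Of the genes of transforming growth factor beta and its latency 5 of 17 were identified and all 5 were higher, with Ltbp2 at 3.99 and Tgfb1, the ligand that drives collagen transcription in many mesenchymal cells, at 1.61. The median log2 change of the lists of folding, processing, breakdown and growth factor genes was 1.04, 1.62, 1.65 and 2.56. Over all tested genes it was 0.02, and over the 2003 tested genes with a symbol, from which the list members were drawn, it was 0.49.

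Markers of cell types that the tissue could hold were counted, again only among genes that the study lists as changed. The background was 30.3% called higher and 27.7% called lower over all tested genes. Over the 2003 tested genes with a symbol it was 53.4% and 40.5%. S100a4 of the fibroblast list and Cnn1 and Actg2 of the smooth muscle list were not called (adjusted p = 0.77, 0.19 and 0.39, edgeR). Of the fibroblast and myofibroblast markers 4 of 12 were identified and 3 were higher. Their summed level was 425 to 1566 CPM in SNx (highest in SNx 1) and 183 to 249 CPM in NoOp. Vimentin (Vim) had the highest mean CPM of the list, and no identified marker was at 0 in all libraries. Vim rose by 2.15 and periostin (Postn) by 5.23 on the log2 scale, and the rise of Postn was 4.35 without SNx 1. Of the leukocyte markers 7 of 10 were identified and all 7 were higher, with a sum of 220 to 550 CPM in SNx and 79.6 to 119 CPM in NoOp. Csf1r had the highest mean CPM of that list. The leukocyte sum was highest in SNx 1 and lowest in SNx 8, the same libraries that held the extremes of Col3a1 and Col8a1. The smooth muscle sum had these extremes too, at 131 CPM in SNx 1 and 35.2 CPM in SNx 8. The fibroblast and myofibroblast sum was instead lowest in SNx 11 (425 CPM), with 550 CPM in SNx 8. Ptprc rose by 2.18 and Cd79b by 3.96. Of the proximal tubule markers 6 of 8 were identified and all 6 were lower, with a sum of 1576 to 14602 CPM in SNx and 19811 to 23197 CPM in NoOp. Lrp2 had the highest mean CPM of that list, and Aqp1 fell by 1.69 and Cubn by 0.81 on the log2 scale. The smooth muscle markers had 3 of 6 identified and 1 higher (Des, 0.93), the endothelial list 1 of 9 (Ehd3, which fell by 0.73) and the podocyte list 1 of 6 (Ptpro, which fell by 1.32). The distal nephron and blood lists had no identified gene. The proximal tubule markers were thus present in every library. The part of these cell types in the rise of Col3a1, Col8a1 and Col4a2 was not tested.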

How the data were processed

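Kidney RNA was sequenced after rRNA depletion as strand-specific paired-end libraries, 12 of SNx and 5 of NoOp. The study's text reports a wide range of RNA integrity over all its samples, with low values among them. The labels give no such value per library, so its part in levels, spread and correlations was not tested. The authors quantified transcripts against rn6 (the submitters' processing notes name Salmon and limma, with no version given) and used tximport to obtain gene-level estimated counts, which were deposited as whole numbers. They also deposited log2 values after voom, used only in alternatives; the 34 columns of whole-series tables were not used. Estimated counts deposited as whole numbers needed no rounding. edgeR 4.0.16 in R 4.3.3 (filterByExpr, TMM, quasi-likelihood test, Benjamini-Hochberg over 15438 genes, threshold 0.05) compared the groups. Log2 CPM used a prior count of 2. Single values used exact permutation over libraries (6188 splits, 4096 sign choices), and correlations used 100000 permutations. No pair of libraries agreed within sampling noise. p-values measure the spread between these libraries, taken as 1 per rat. Fits were tested on simulated data. The 3 genes and all lists were chosen with earlier results of these data known. Named genes follow a rule: all members, every identified collagen, in other lists the 2 called genes with the smallest p and those called against their list, and the 5 nearest patterns. Symbols came only from the study's lists of changed genes (2007 genes, 2003 tested). Alternatives were DESeq2 1.42.0, limma 3.58.1 (voom, and the deposited log2 values), robust dispersions, RLE, scaling by library size alone, omitting the filter, requiring 10 counts in all libraries, a prior count of 0.5, each library left out, and each range of library numbers.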

Additional observations from a re-analysis of the deposited data

Results flagged for a closer look

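Among 78 sets of 5 NoOp values, 1 for each of the 75 tested genes of the lists and for each of the 3 log2 ratios between members, 4 held a library that stood apart by Dixon's criterion, where chance gives 3.9. Sparc, a matricellular collagen-binding protein, was 8.17 log2 CPM in NoOp 5 and 8.48 to 8.54 in the others. Ptprc, the leukocyte antigen CD45, was 2.85 log2 CPM in NoOp 5 and 3.87 to 4.28 in the others. Aqp1, the water channel of the proximal tubule, was 10.995 log2 CPM in NoOp 1 and 11.49 to 11.68 in the others. The metalloproteinase Mmp7 was -2.99 log2 CPM in NoOp 4, which had 2 counts, and -3.75 in the others, which had 0 counts. The members had no library apart in NoOp. Groups of 12 SNx libraries were not examined in this way.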

How the results depend on the processing

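The rises of Col3a1 (2.39 to 3.03 on the log2 scale), Col8a1 (3.31 to 3.72) and Col4a2 (1.18 to 1.53) kept their direction and call in all 10 other settings and with each of 17 libraries left out (2.44 to 2.83, 3.39 to 3.63 and 1.26 to 1.34), and the 3 differences of rise did so in the 6 other settings run for them and with each library left out. No paired analysis was made, because the labels tie no SNx rat to a NoOp rat. With library size alone, 7044 genes were called higher and 2403 lower, against 4672 and 4277. The unstable results were among the spreads and the correlations with Col4a2. Col3a1 with Col8a1 kept its correlation call with each SNx library left out (r 0.88 to 0.93). The excess spread of Col8a1 over Col4a2 within SNx was 0.122 with the lower and 0.183 with the upper range of library numbers and 0.151 to 0.220 with 1 library left out, and past the threshold in none of these. That of Col3a1 over Col8a1, 0.0180 with all libraries, was 0.142 with the lower and -0.0021 with the upper range and -0.049 to 0.056 with 1 left out, past the threshold in none. The spread of Col4a2 in SNx minus NoOp was 0.137 to 0.190 with 1 left out and passed without SNx 3 (adjusted p = 0.0412) and without SNx 4. With 6 libraries, r was 0.64 (lower) and 0.58 (upper) for Col3a1 with Col4a2, 0.62 and 0.77 for Col8a1 with Col4a2, none past the threshold, and 0.91 for Col3a1 with Col8a1 in the upper range (exact permutation adjusted p = 0.0542). With 1 library left out, r for Col3a1 with Col4a2 was 0.37 to 0.76 and for Col8a1 with Col4a2 0.59 to 0.81, and both lost their call only without SNx 1. The rise of S100a4, not called, changed sign from -0.14 to 0.11 with limma-voom, 0.16 on the deposited log2 values, 0.0567 with library size alone and 0.29 without NoOp 5 (-0.38 to 0.29 with 1 library left out). Of 1940 values for 72 other genes of the lists, 1916 kept direction and call, 11 lost it, 9 gained it and 4 reversed. The cause of these changes was not tested. Deviations from the mean, and collagen counts, ranks, ratio ranges and descriptive correlations without SNx 1, were added after seeing the data; the former gave adjusted p = 0.00293 for Col8a1 against Col4a2. Among the 3 members, depth limits mainly Col8a1 in NoOp, with 117 to 257 counts. Mmp12, Postn and Cd79b of the lists reached at most 0.30, 1.12 and 0.52 CPM in NoOp, so their rises rest on fewer counts still.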
